A study of Mus musculus with 10 samples.

Results

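The thin filament genes described here are 10 genes of troponin and tropomyosin in the left ventricle (LV) of young mice: Tnnt1, Tnnt2 and Tnnt3 (troponin T), Tnni1 and Tnni3 (troponin I), Tnnc1 (troponin C), and Tpm1, Tpm2, Tpm3 and Tpm4 (tropomyosin). They were chosen by name, and they are 10 of the 55401 genes in the tables. RNA from LV tissue was sequenced from 5 mice with neonatal ascending aortic constriction (nAAC) and 5 mice with a sham operation, with 1 library per mouse. In nAAC the ascending aorta is narrowed surgically in newborn mice, so that the LV works against a raised pressure load from birth. All 10 mice were wild type (WT) and 4 weeks old, and they were kept with their mothers after surgery. The study mice were on a C57BL/6 background, and females and males were assigned to the groups at random. The sexes of these 10 mice are not given here, so their balance between the groups is not known. The comparison asks how the isoform make-up of thin filament RNA differs between the pressure-overloaded and the sham LV. Protein of these genes was not measured here.

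In the sarcomere, tropomyosin dimers lie along the actin filament and troponin sits on tropomyosin at regular intervals. Troponin C binds calcium, troponin I holds the filament in the blocked state in resting muscle, and troponin T ties the complex to tropomyosin. Troponin I and troponin T have separate genes for cardiac, slow skeletal and fast skeletal muscle, troponin C has 1 for cardiac and slow and another for fast skeletal muscle, and the developing heart uses slow skeletal troponin I (Tnni1) before cardiac troponin I (Tnni3) replaces it around birth. Tropomyosin genes also make several proteins each by alternative splicing, some for striated muscle and others for smooth muscle and the cytoskeleton.

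Tpm2, which encodes beta-tropomyosin, differed most between the groups in level and in the implied make-up of its transcripts, so its alternative exons are shown first. Tpm2 lies on the minus strand at chr4:43514711-43523765 of GRCm38 and has 3 annotated full coding transcripts of 9 exons, each with 852 coding bases. Tpm2-201 (2175 bases) and Tpm2-202 (2098 bases) end in a long last exon of 1293 or 1292 bases, and Tpm2-203 (1164 bases) begins its last exon further downstream, inside the same stretch, and holds only its final 151 bases. What follows the stop codon in the long last exon thus includes the coding end of Tpm2-203. The coding parts of both last exons, with the stop codon, have 83 bases each and are at chr4:43515921-43516003 (long) and chr4:43514779-43514861 (short). Capitals mark the bases that differ between both when they are set side by side without gaps.

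Tpm2-202, long last exon: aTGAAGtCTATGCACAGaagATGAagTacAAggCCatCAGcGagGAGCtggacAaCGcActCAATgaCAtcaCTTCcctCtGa

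Tpm2-203, short last exon: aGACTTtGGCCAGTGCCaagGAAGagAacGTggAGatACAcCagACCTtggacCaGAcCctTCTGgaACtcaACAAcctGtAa

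They differ at 48 of 83 bases, so 42.2% of the bases are equal. The second choice is at exon 6. Tpm2-201 and Tpm2-203 use the exon at chr4:43519003-43519078, and Tpm2-202 uses the exon at chr4:43518644-43518719, both of 76 coding bases on the minus strand.

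Tpm2-203, exon 6: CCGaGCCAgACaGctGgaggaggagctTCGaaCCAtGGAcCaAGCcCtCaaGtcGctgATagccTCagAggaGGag

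Tpm2-202, exon 6: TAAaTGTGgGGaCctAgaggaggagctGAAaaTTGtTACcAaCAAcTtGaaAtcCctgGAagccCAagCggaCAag

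These exons differ at 35 of 76 bases, again in capitals. The form with the second exon 6 and the long last exon (Tpm2-202) is known as the striated muscle form of beta-tropomyosin, and the form with the first exon 6 and the short last exon (Tpm2-203) as that of smooth muscle and other cells.

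**Figure D1:**
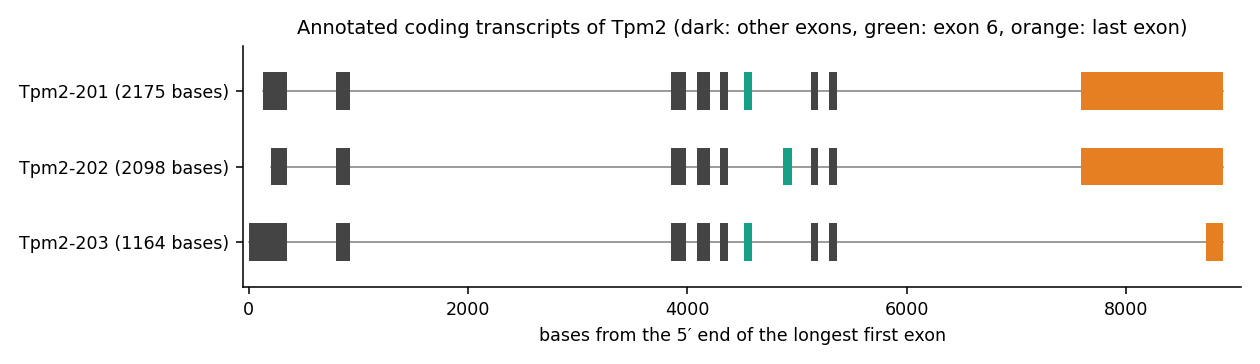
Exons of the 3 annotated full coding transcripts of Tpm2, drawn to scale as boxes along the gene in bases from the 5′ end of the longest first exon, with exon 6 in green, the last exon in orange and the other exons in dark grey. The last exon has 1293 or 1292 bases in Tpm2-201 and Tpm2-202 and 151 bases in Tpm2-203, and exon 6 of Tpm2-202 lies downstream of that of the other 2.

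Levels are given as FPKM, a count of fragments scaled to transcript length and to library size, which allows levels of different genes to be compared. For the comparison of groups, log2(FPKM + 1) of the 11867 genes whose FPKM averaged 1 or more was tested with limma, with Benjamini-Hochberg adjustment of p over this whole set. Of the 10 genes, 8 reached this mean, and Tnni1 and Tnnt3 did not. Estimated from the commonest FPKM-to-coverage ratio, the libraries held about 4.86 to 6.82 gigabases of aligned sequence, with nAAC replicate 1 the deepest. The median log2 fold change (FC) of all genes tested was 0.22 and not 0, so the FC of each gene is also given relative to that median. Sham replicate 4 had the highest FPKM of the sham group for Tnnt1, Tnnt2, Tnnt3, Tnni3, Tnnc1, Tpm1 and Tpm2 and the lowest share of mitochondrial transcripts in that group, 33.7% of TPM in a range up to 49.8%. Results that rest on this mouse are therefore given without it as well. In nAAC mice the mitochondrial share ran from 32.85% to 39.86% of TPM, with a median of 36.1% against 46.5% in sham mice. The part of this share in the FCs was not tested.

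Among the 8 genes tested, 3 were higher in nAAC at an adjusted p below 0.05 (Tpm2, Tpm3 and Tpm4) and 2 were lower (Tnni3 and Tnnt1). Over all genes tested, 27.1% were called higher and 4.60% lower. With FPKM as deposited, Tpm2 alone of the 10 also passed an absolute log2 FC of 1, which 5.91% of all genes tested did. After median-ratio scaling Tnni3 (-1.10, adjusted p = 0.00159 from limma) and Tnnt1 (-1.19, adjusted p = 0.00333) passed it as well. Both also did after upper-quartile scaling, at -1.09 and -1.18 (adjusted p = 0.000814 and 0.00251 from limma). The groups did not overlap for 3 of the 8, Tpm2, Tpm4 and Tnni3, against 22.3% of all genes tested. The median log2 FC of the 8 was 0.21, close to that of all genes.

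The genes fell into an abundant and a low set in both groups. In sham LV the mean FPKM was 4678 ± 1184 (SD, n = 5) for Tpm1, 3408 ± 1595 (SD, n = 5) for Tnnt2, 3303 ± 1173 (SD, n = 5) for Tnni3 and 1190 ± 364 (SD, n = 5) for Tnnc1. Tpm1 encodes the main tropomyosin of the heart, and it ranked 24 among all genes in sham LV. The ranges of Tpm1, Tnnt2 and Tnni3 overlapped in sham LV, and Tnnc1 lay below all 3 in every library. In nAAC LV the order by mean FPKM was the same for these 4, with Tpm1 at 3423 ± 438 (SD, n = 5), Tnnt2 at 3023 ± 577 (SD, n = 5), Tnni3 at 1813 ± 287 (SD, n = 5) and Tnnc1 at 1650 ± 335 (SD, n = 5). There the neighbours Tpm1 and Tnnt2 overlapped, and so did Tnni3 and Tnnc1. The low set changed its order: Tpm4, Tpm3, Tpm2, Tnnt1, Tnni1 and Tnnt3 from high to low in sham LV became Tpm2, Tpm4, Tpm3, Tnnt1, Tnni1 and Tnnt3 in nAAC LV. Tpm2 moved from rank 4553 to rank 818 among all genes. In nAAC LV its mean FPKM was 53.8, close to the 53.0 of Tpm4. The nAAC values of Tpm2 spread more widely, from 28.4 to 82.6 against 45.0 to 62.2 for Tpm4.

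**Figure D2:**
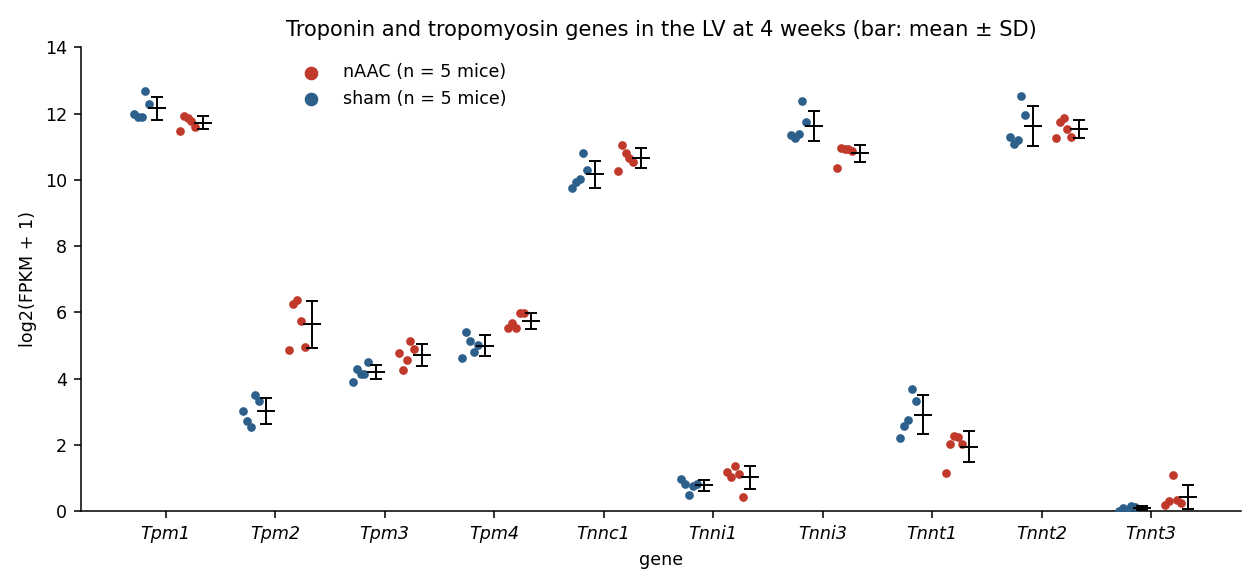
Level of each of the 10 genes as log2(FPKM + 1), with 1 point per mouse, sham in blue and nAAC in red, and the mean and SD as black bars beside the points. Tpm2 and Tpm4 are higher in every nAAC mouse than in every sham mouse, Tnni3 is lower in every nAAC mouse, and Tnnt3 and Tnni1 are near the bottom of the scale.

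Tpm2 showed the largest difference of the 10. Its FPKM was 28.4, 75.7, 82.6, 52.2 and 30.1 in nAAC replicates 1 to 5 and 7.16, 5.55, 4.84, 10.3 and 9.06 in sham replicates 1 to 5. Every nAAC mouse was above every sham mouse, and nAAC replicates 2 and 3 were the highest. This gave a log2 FC of 2.62 ± 0.30 (standard error, SE; limma adjusted p = 3.31e-05), or 2.39 above the median of all genes, and Tpm2 ranked 40 of the genes tested by log2 FC. The two-sided exact permutation p was 0.0079, the smallest that 5 against 5 mice can give. Its log2 FC stayed between 2.30 and 2.84 under all 18 alternative settings, with adjusted p values from 1.55e-05 to 0.000811.

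The implied make-up of the Tpm2 transcripts differed as well. If coverage is averaged over all exon bases of a gene and FPKM over its transcripts, their ratio carries the mean length of the transcripts present. In each library at least 98.8% of the genes with 1 annotated transcript sat at 1 common ratio, within 2%. This sets the scale but does not test the reading, because all exon bases of such a gene belong to its 1 transcript. For genes with several transcripts the implied mean length fell within the annotated range for at least 94.6%. That is a loose check, as the range for Tpm2 is 337 to 2175 bases. The implied mean length was chosen as a measure after the values were seen. The implied mean length of Tpm2 transcripts was 2052, 2017, 2014, 1884 and 2002 bases in nAAC replicates 1 to 5. It was 1235, 1424, 1348, 1295 and 1407 bases in sham replicates 1 to 5. The nAAC mice were near the 2098 bases of Tpm2-202 and the 2175 bases of Tpm2-201. The sham mice were closer to the 1164 bases of Tpm2-203 than to these. They also lay below the 1545 bases of Tpm2-205, which is annotated without coding bases. The means were 1994 ± 64 and 1342 ± 79 bases (SD, n = 5 each), without overlap. In a limma fit of the log2 length over 10100 genes, the change of Tpm2 was 0.57 (standard error 0.04, adjusted p = 0.00116) and ranked 3 by p, where 0.208% of the genes were called.

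**Figure D3:**
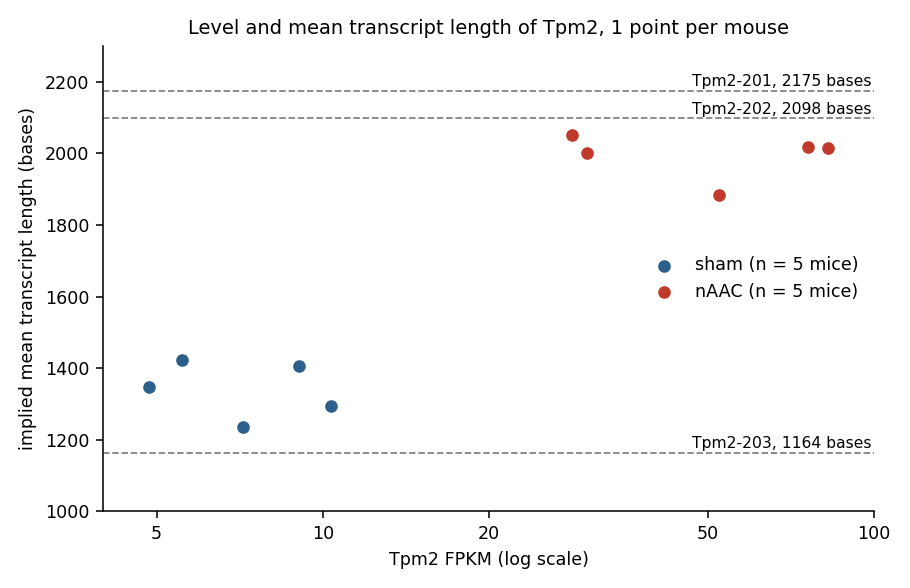
Implied mean transcript length of Tpm2 in bases against its FPKM on a log scale, with 1 point per mouse, sham in blue and nAAC in red, and dashed lines at the annotated lengths of Tpm2-201, Tpm2-202 and Tpm2-203. The 5 sham mice lie between 1235 and 1424 bases at an FPKM of 10.3 or less, and the 5 nAAC mice between 1884 and 2052 bases at 28.4 or more.

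If only Tpm2-202 and Tpm2-203 are assumed to be present, the mean length gives the share of each. The long last exon was then in 88.8% ± 6.86 of Tpm2 transcripts in nAAC mice and in 19.0% ± 8.42 in sham mice (SD, n = 5 each). The FPKM with the long last exon was 47.7 ± 23.0 in nAAC and 1.37 ± 0.686 in sham mice (SD, n = 5 each), and no values overlapped (two-sided exact permutation p = 0.0079). This separation follows from those of the level and of the mean length, so its p is no further evidence. The FPKM with the short last exon was 6.10 ± 4.11 and 6.02 ± 2.10 (SD, n = 5 each), and this difference was within the spread between mice (two-sided exact permutation p = 0.75). With Tpm2-201 as the long form in place of Tpm2-202, the share with the long last exon was 82.1% in nAAC and 17.6% in sham mice. The short form was then at an FPKM of 9.73 ± 5.12 and 6.12 ± 2.11 (SD, n = 5 each; two-sided exact permutation p = 0.28). Only under the assumption of 2 forms does the mean length separate the last exons. The annotation also holds Tpm2-205 (1545 bases), Tpm2-206 (401 bases) and Tpm2-204 (337 bases). These were left out, and they or transcripts outside the annotation would change the split if present. The mean length does not tell the exon 6 of Tpm2-202 from that of Tpm2-201, whose lengths are close.

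None of the other 7 genes in the length fit was called, with adjusted p values from 0.528 to 0.993. Tnnt2, whose fetal and adult cardiac forms differ by short exons, had an implied mean length of 1095 ± 4 bases in nAAC and 1088 ± 4 bases in sham mice (SD, n = 5 each). The ranges, 1089 to 1102 and 1082 to 1091 bases, overlapped. The two-sided exact permutation p of Tnnt2 was 0.024 without adjustment, and the adjusted p from limma was 0.528. Tpm1 transcripts averaged 1003 ± 25 and 1000 ± 8 bases, and Tpm3 transcripts 1013 ± 12 and 1015 ± 2 bases (SD, n = 5 each). Exchanges between exons of equal or nearly equal length do not show in this measure. The length of Tpm4 transcripts is not given in bases, because its coordinates in the tables differ from the annotation used here.

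Tpm4 and Tpm3 encode tropomyosins that are used outside the sarcomere, and Tpm3 also encodes that of slow skeletal muscle. Tpm4 had an FPKM of 45.1, 50.7, 45.0, 62.2 and 62.1 in nAAC replicates 1 to 5 and 23.7, 41.9, 34.0, 27.2 and 31.2 in sham replicates 1 to 5. The groups did not overlap, although sham replicate 2 came close to the lowest nAAC mice. Tpm4 rose by a log2 FC of 0.74 ± 0.16 (SE; limma adjusted p = 0.00448), or 0.52 above the median of all genes. After upper-quartile scaling it was 0.48, with an adjusted p of 0.0535 from limma. Tpm3 had an FPKM of 26.7, 18.2, 22.4, 33.9 and 29.1 in nAAC and 14.1, 18.6, 16.8, 16.7 and 21.6 in sham replicates 1 to 5. The groups overlapped, with nAAC replicate 2 inside the sham range. Tpm3 had a log2 FC of 0.52 ± 0.17 (SE; limma adjusted p = 0.03), and relative to the median of all genes it was 0.30. It was no longer called in 10 of 18 alternatives, including median-ratio scaling (0.26, adjusted p = 0.221 from limma) and Xist as a covariate (0.27, adjusted p = 0.311). It was also lost without nAAC replicate 1, 4 or 5 and without sham replicate 1 or 3, with values from 0.42 to 0.51 and adjusted p values up to 0.0822. The processed copy Tpm3-rs7, which can share reads with Tpm3, was at an FPKM of 2.31 ± 0.320 in nAAC and 1.98 ± 0.397 in sham mice (SD, n = 5 each) and was not called (adjusted p = 0.352 from limma).

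Some markers of smooth muscle cells, pericytes and fibroblasts, which carry non-sarcomeric tropomyosin, were also higher. Of 10 markers of smooth muscle cells and pericytes, 7 were higher in nAAC (4 with median-ratio scaling) and none lower, against 27.1% of all genes tested, and their summed FPKM ran from 299 to 437 in nAAC and from 219 to 313 in sham mice. The largest log2 FCs were those of Tagln (1.54), Myh11 (1.25), Cspg4 (1.24) and Cnn1 (1.17), while Rgs5, Kcnj8 and Smtn were not called. Of 10 fibroblast markers, 7 were higher (5 with median-ratio scaling) and none lower, led by Postn (3.78), and their summed FPKM ran from 1111 to 1764 in nAAC and from 728 to 955 in sham mice. Their part in the levels of Tpm2, Tpm3 and Tpm4 was not tested. In bulk tissue, more or fewer cells of a type and more or less RNA per cell cannot be told apart.

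Tpm1 had an FPKM of 2866, 3890, 3774, 3494 and 3092 in nAAC replicates 1 to 5 and 4102, 3852, 3802, 6603 and 5032 in sham replicates 1 to 5. All nAAC mice but replicate 2 were below the lowest sham mouse, and sham replicate 4 was far above the others. Tpm1 had a log2 FC of -0.43 ± 0.19 (SE; limma adjusted p = 0.108), or -0.65 relative to the median of all genes. The call depended on scaling: Tpm1 passed as lower after median-ratio scaling (-0.71, adjusted p = 0.0128 from limma), after upper-quartile scaling (-0.69, adjusted p = 0.00773) and with length and GC trends removed (-0.65, adjusted p = 0.00475). Without sham replicate 4 it was -0.29, with an adjusted p of 0.137 from limma.

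Shares within a family do not depend on scaling between libraries. Over 4 tropomyosin genes, the share of Tpm1 in the summed FPKM was 96.3% ± 0.262 in nAAC and 98.8% ± 0.334 in sham mice (SD, n = 5 each). Tpm2 made up 1.46% ± 0.529 against 0.155% ± 0.0217, Tpm4 1.51% ± 0.321 against 0.709% ± 0.264, and Tpm3 0.752% ± 0.224 against 0.386% ± 0.0901 (SD, n = 5 each). The groups did not overlap for Tpm1, Tpm2 and Tpm4, each with a two-sided exact permutation p of 0.0079 (0.013 after adjustment over the 10 tests of shares and sums). For Tpm3 they overlapped (exact permutation p = 0.016, adjusted 0.023). The share of Tpm3 was no longer past the threshold without sham replicate 4 (exact permutation p = 0.056). The ratio of Tpm2 to Tpm1 was 15.2 ± 5.50 per 1000 in nAAC and 1.57 ± 0.218 per 1000 in sham mice (SD, n = 5 each), a 9.26-fold difference of the geometric means. Tpm1 made up at least 95.9% of tropomyosin FPKM in every library.

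Tnni3 encodes cardiac troponin I. It lies on the minus strand at chr7:4518305-4524229, and its FPKM was 1304, 1986, 1942, 1950 and 1884 in nAAC replicates 1 to 5 and 2619, 2477, 2675, 5287 and 3457 in sham replicates 1 to 5. Every nAAC mouse was below every sham mouse. The nAAC replicate 1 stood apart as the lowest and sham replicate 4 as the highest. Tnni3 had a log2 FC of -0.82 ± 0.23 (SE; limma adjusted p = 0.0147), or -1.04 relative to the median of all genes, and the two-sided exact permutation p was 0.0079. Without sham replicate 4 it was -0.63 (adjusted p = 0.0109 from limma), without nAAC replicate 1 it was -0.71 (adjusted p = 0.0369), and with length and GC trends removed it was -1.10 (adjusted p = 1.62e-05). With no filter on low values the adjusted p rose to 0.064. The same-strand gene Dnaaf3, which overlaps Tnni3, was at a mean FPKM of 0.475 in nAAC and 1.53 in sham mice.

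Tnnc1 encodes the troponin C of cardiac and slow skeletal muscle. Its FPKM was 1226, 2119, 1794, 1621 and 1488 in nAAC replicates 1 to 5 and 871, 986, 1043, 1789 and 1263 in sham replicates 1 to 5. Most nAAC mice were above most sham mice, but sham replicate 4 lay within the upper nAAC range. Tnnc1 had a log2 FC of 0.49 ± 0.22 (SE; limma adjusted p = 0.0973), and 0.27 relative to the median of all genes. It passed the threshold without sham replicate 4 (0.65, adjusted p = 0.012 from limma) and with TPM in place of FPKM (0.67, adjusted p = 0.0238), but it was 0.21 after median-ratio scaling (adjusted p = 0.488). The antisense gene Nisch, which overlaps Tnnc1, was at a mean FPKM of 42.3 in nAAC and 28.3 in sham mice, and whether the counting used strand is not given in the sources used here.

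Relative to each other within a library, the RNAs of the calcium-binding and the inhibitory subunit differed more clearly. The ratio of Tnnc1 to Tnni3 was 0.940, 1.07, 0.924, 0.831 and 0.790 in nAAC replicates 1 to 5. It was 0.333, 0.398, 0.390, 0.338 and 0.365 in sham replicates 1 to 5. The groups were far apart, sham replicate 4 was within its group, and so was nAAC replicate 1. The means were 0.910 ± 0.108 and 0.365 ± 0.0294 (SD, n = 5 each), and the log2 ratio was higher in nAAC by 1.32, or 2.49-fold. The two-sided exact permutation p was 0.0079 (0.012 after Benjamini-Hochberg adjustment over the 9 ratios computed). This ratio and the other 5 among Tnnc1, Tnnt2, Tpm1 and Tnni3 were chosen after the values were seen.

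All 6 ratios among Tnnc1, Tnnt2, Tpm1 and Tnni3 were compared in this way. The ratio of Tnnt2 to Tnni3 was 1.68 ± 0.259 in nAAC and 1.003 ± 0.130 in sham mice, that of Tpm1 to Tnni3 1.91 ± 0.207 and 1.45 ± 0.129, that of Tnnc1 to Tpm1 0.479 ± 0.0424 and 0.253 ± 0.0247, and that of Tnnc1 to Tnnt2 0.547 ± 0.0622 and 0.370 ± 0.0699 (SD, n = 5 each). In these 4 the groups did not overlap (exact permutation p = 0.0079, adjusted 0.012). The ratio of Tnnt2 to Tpm1, 0.879 ± 0.0733 and 0.701 ± 0.141 (SD, n = 5 each), had overlapping groups (exact permutation p = 0.063, adjusted 0.071). Within a library, Tnni3 was thus lower and Tnnc1 higher relative to each of the other 3 abundant genes in nAAC. A ratio shows unequal change and does not tell which of both genes changed.

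**Figure D4:**
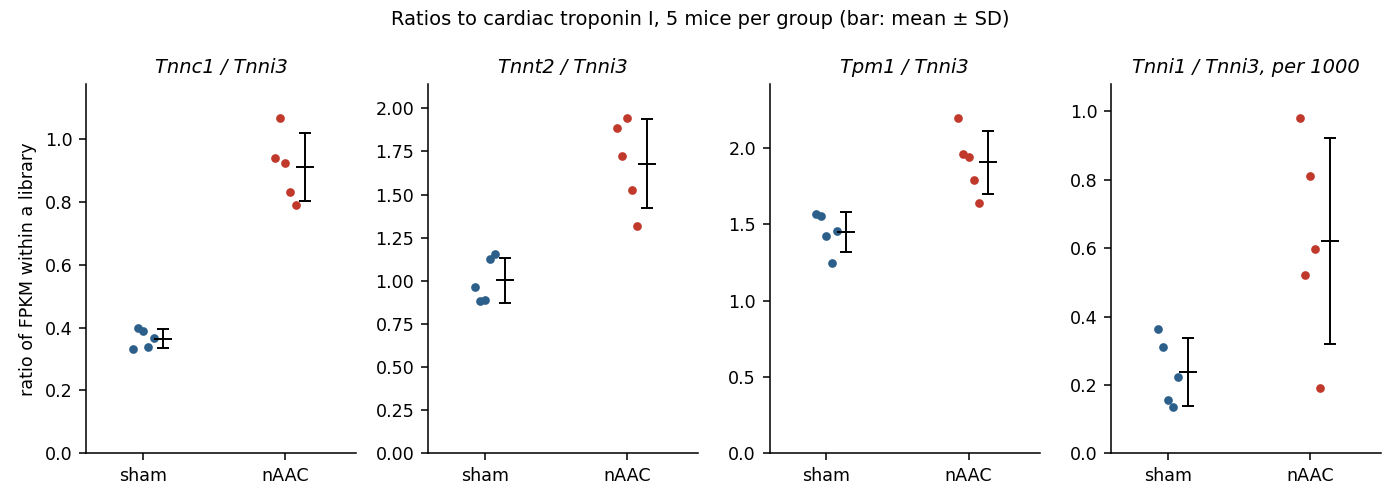
Ratios of Tnnc1, Tnnt2, Tpm1 and Tnni1 to Tnni3, as FPKM ratios within a library (the last per 1000), with 1 point per mouse, sham in blue and nAAC in red, and the mean and SD as black bars. The groups are apart in the first 3 panels, and in the last 1 nAAC mouse, at 0.190, lies inside the sham range of 0.135 to 0.364.

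Tnni1, the slow skeletal troponin I of the fetal heart, was at low levels in both groups. Its FPKM was 1.28, 1.03, 1.58, 1.17 and 0.357 in nAAC replicates 1 to 5 and 0.954, 0.772, 0.417, 0.711 and 0.776 in sham replicates 1 to 5. The nAAC mice except replicate 5 were above the highest sham mouse, and replicate 5 was below the lowest. The mean difference in log2(FPKM + 1) was 0.25, within the spread between mice (two-sided exact permutation p = 0.19). Without nAAC replicate 5 it was 0.39 (exact permutation p = 0.016).

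The ratio of Tnni1 to Tnni3, a measure of the fetal against the adult isoform, was 0.981, 0.520, 0.812, 0.599 and 0.190 per 1000 in nAAC replicates 1 to 5. It was 0.364, 0.312, 0.156, 0.135 and 0.224 per 1000 in sham replicates 1 to 5. The highest sham mouse was above nAAC replicate 5, so the groups overlapped. The means were 0.620 ± 0.301 and 0.238 ± 0.0987 per 1000 (SD, n = 5 each), and the log2 ratio was higher in nAAC by 1.29, or 2.45-fold (two-sided exact permutation p = 0.04, adjusted 0.051 over the 9 ratios). In 9 of 13 alternatives the unadjusted p was above 0.05, and the log2 difference lay between 1.08 and 1.67 when single mice were left out, with p values from 0.0079 to 0.079. Even in the nAAC mouse with the highest ratio, Tnni1 reached less than 1 FPKM for 1000 FPKM of Tnni3. The share of Tnni1 in troponin I FPKM was 0.0620% ± 0.0301 in nAAC and 0.0238% ± 0.00987 in sham mice (SD, n = 5 each).

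Among the genes tested, those with the most similar profile to Tnni1 over the 10 libraries were Snx32, Tmem129, Firre, Gm26982 and Nrbp2. The likeness is the root mean square difference of centred log2(FPKM + 1), which ran from 0.143 to 0.168. Tnni1 is low and varies little on this scale, and how small the difference gets by chance was not tested. The list is therefore no evidence of shared regulation.

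Tnnt2, the cardiac troponin T gene, had an FPKM of 2461, 3420, 3775, 2972 and 2486 in nAAC replicates 1 to 5 and 2523, 2185, 2382, 5959 and 3991 in sham replicates 1 to 5. The nAAC values lay inside the sham range, which sham replicates 4 and 5 extended upwards. Tnnt2 had a log2 FC of -0.08 ± 0.27 (SE; limma adjusted p = 0.839), it was 0.15 without sham replicate 4 and 0.09 with TPM, and it was not called in any setting.

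Tnnt1, the slow skeletal troponin T gene, had an FPKM of 1.21, 3.09, 3.86, 3.69 and 3.13 in nAAC replicates 1 to 5 and 3.65, 4.99, 5.73, 12.0 and 9.10 in sham replicates 1 to 5. Sham replicate 1 lay inside the nAAC range and the other sham mice above it, and nAAC replicate 1 was the lowest of all. Tnnt1 had a log2 FC of -0.97 ± 0.28 (SE; limma adjusted p = 0.0182), or -1.19 relative to the median of all genes. It was -0.78 without sham replicate 4 (adjusted p = 0.0302 from limma) and -0.77 without nAAC replicate 1 (adjusted p = 0.0373), and with no filter on low values the adjusted p was 0.0692. Tnnt1 lies 1922 bases downstream of Tnni3 on the same strand, at chr7:4504570-4516382. The ratio of Tnnt1 to Tnni3 was 1.61 ± 0.418 per 1000 in nAAC and 2.09 ± 0.451 per 1000 in sham mice (SD, n = 5 each), with overlapping groups (two-sided exact permutation p = 0.14). As a share of troponin T FPKM, Tnnt1 made up 0.0982% ± 0.0313 in nAAC and 0.208% ± 0.0383 in sham mice (SD, n = 5 each), without overlap (exact permutation p = 0.0079, adjusted 0.013).

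Tnnt3, the fast skeletal troponin T gene, was near the bottom of the scale. Its FPKM was 0.147, 0.230, 1.12, 0.263 and 0.194 in nAAC replicates 1 to 5 and 0, 0.0801, 0.0352, 0.126 and 0.0922 in sham replicates 1 to 5, where sham replicate 1 is listed at 0. All nAAC mice were above all sham mice, and nAAC replicate 3 was well above the rest. Prr33, which overlaps Tnnt3 on the opposite strand, was at a mean FPKM of 1.56 in nAAC and 2.32 in sham mice. The implied mean length of Tnnt3 was 125 to 396 bases where it was detected, and its annotated transcripts have 340 to 1079 bases. Whether its values come from complete troponin T transcripts was not tested. The mean difference of Tnnt3 in log2(FPKM + 1) was 0.34 (two-sided exact permutation p = 0.0079). It was 0.18 without nAAC replicate 3 (exact permutation p = 0.0079) and 1.33 with a pseudocount of 0.1, so its size depends on both. Tnni2, the fast skeletal troponin I gene 54.4 kilobases from Tnnt3 on chromosome 7, went the other way, with 0.160 ± 0.0883 in nAAC and 1.31 ± 0.315 in sham mice (SD, n = 5 each, exact permutation p = 0.0079 on the log2 scale). Tnnc2, the fast skeletal troponin C gene, was listed at 0 in all 10 libraries. Of 12 skeletal muscle markers, which include Tnni2 and Tnnc2, 1 reached the mean FPKM for testing, Mybpc2, at 22.4 ± 7.63 in nAAC and 1.40 ± 0.778 in sham mice (SD, n = 5 each), and 2 were at 0 in every library. Their summed FPKM ran from 10.9 to 32.1 in nAAC and from 2.42 to 4.81 in sham mice. Mybpc2 carried this sum: the other 11 summed to 0.612 to 1.12 in nAAC and 1.31 to 2.26 in sham mice, the reverse order. Their part in the level of Tnnt3 was not tested. Of the neighbouring gene pairs on chromosome 7, Tnnt1 and Tnni3 were thus both lower in nAAC. Tnnt3 and Tnni2, both at low levels, differed in opposite directions.

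**Figure D5:**
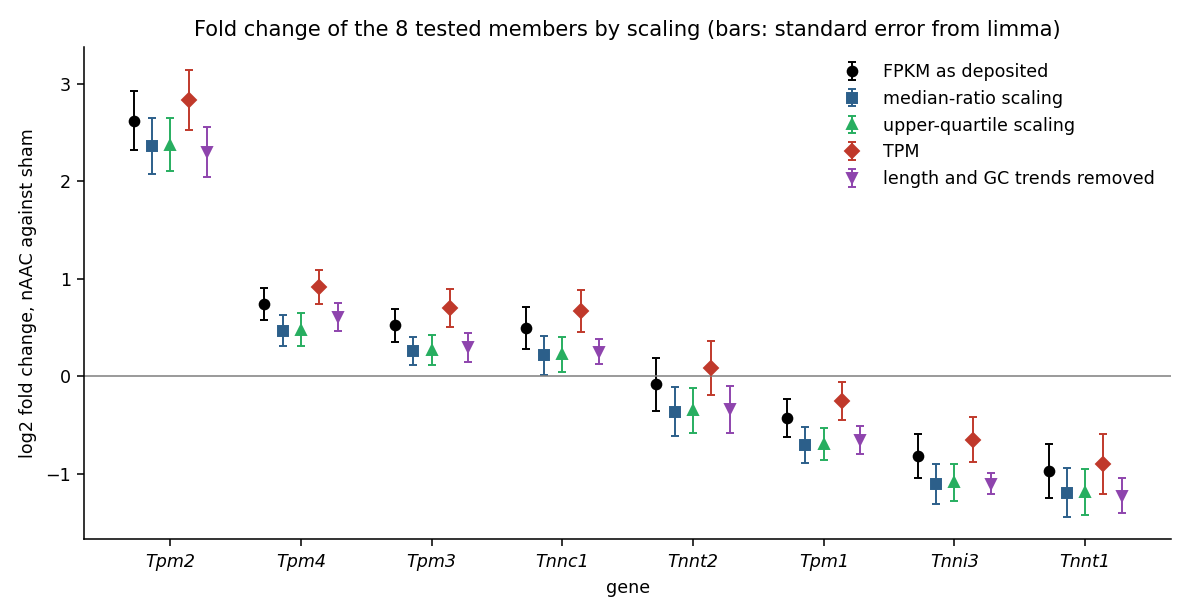
Log2 FC of the 8 tested genes in nAAC against sham LV under 5 scalings, with the standard error from limma as bars. Tpm2, Tpm4, Tpm3 and Tnnc1 lie above 0 and Tpm1, Tnni3 and Tnnt1 below 0 under each of them, and Tnnt2 changes sign with TPM.

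Of 20 other listed genes of the thin filament, 16 were tested, 10 of them were higher and 2 lower (27.1% and 4.60% of all genes tested), with a median log2 FC of 0.59 against 0.22 for all genes. Acta1, the skeletal actin gene, which the fetal heart also uses, rose from an FPKM of 37.6 ± 16.7 to 3294 ± 477 (SD, n = 5 each; log2 FC 6.52, adjusted p = 9.74e-09 from limma). The actin-binding Xirp2 and Nrap, which sit at the intercalated disc, had log2 FCs of 3.50 and 1.54, and Tmod4, of the tropomodulins that cap the pointed end of the filament, had one of -1.43. With median-ratio scaling the counts were 7 and 3 of 16.

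There were 17 tested regulators of splicing that act on troponin T and tropomyosin exons in muscle or other cells. Of these, 3 were higher and 1 lower (27.1% and 4.60% of all genes tested), with a median log2 FC of 0.10. With median-ratio scaling 2 were higher and 3 lower. Rbfox1 fell from an FPKM of 14.7 ± 3.33 to 2.94 ± 0.687 (SD, n = 5 each), a log2 FC of -1.98 (adjusted p = 4.19e-06 from limma). Celf2 (0.89), Ptbp1 (0.57) and Rbfox2 (0.48) were higher, and Rbfox2 was not called after median-ratio scaling (adjusted p = 0.228 from limma). Whether any of them bears on the Tpm2 exons was not tested. Of 15 tested kinases, phosphatase subunits and proteases that act on troponin or tropomyosin, 5 were higher and 2 lower (27.1% and 4.60% of all genes tested). Their median log2 FC was 0.17, and Prkcd, a protein kinase C, had the largest at 1.08. With median-ratio scaling the counts were 3 and 4.

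The identity of the tissue was checked with markers of other cell types, where 27.1% of all genes tested were higher and 4.60% lower. Of 12 cardiomyocyte markers all were detected, 2 were higher (Mybpc3 0.86, Actn2 0.67) and 2 lower (Atp2a2 -0.87, Pln -0.86), or 2 and 4 with median-ratio scaling, and their summed FPKM ran from 9708 to 15620 in nAAC and from 12130 to 20070 in sham mice. None of the 5 tested atrial markers was called higher and 1 was lower (Tbx5 -0.50), while their summed FPKM ran from 8.94 to 235 in nAAC and from 10.3 to 53.8 in sham mice. Myl4 (1.32), Sln (0.89), Myl7 (0.88) and Nr2f2 (0.29) were not called. The SEs of Myl4, Sln and Myl7 were wide, at 1.01, 0.77 and 1.02. Whether single libraries held atrial tissue was not tested. Endothelial and leukocyte markers had 1 of 6 tested genes higher each and none lower, and none of the 3 erythroid markers was called.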

How the data were processed

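LV libraries of 5 nAAC and 5 sham mice were grouped by the operation in their labels, with 1 gene table per mouse. Total RNA was extracted with Trizol and libraries were made with an NEBNext Ultra kit. The authors deposited 3 values per gene, coverage, FPKM and TPM, computed on the mouse build mm10 per the labels, and none of these is a read count. The deposited coverage is read here as the mean depth over the exon bases of a gene, and the deposited FPKM as corrected for transcript length and library depth. Their definitions are not given in the sources used here. The deposited TPM has a common sum in every library. The table layout is that of StringTie, and the aligner, its version and the use of strand are not given in the sources used here. Gene coordinates equalled GENCODE M21 (GRCm38) for 99.4% of shared genes.

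Repeated rows of a gene ID (7 to 12 per table) were summed. Genes whose FPKM averaged 1 or more were tested on log2(FPKM + 1), a scale that understates changes of low genes, with limma 3.58.1 in R 4.3.3 with a mean-variance trend and Benjamini-Hochberg adjustment, called at an adjusted p below 0.05. Single values, ratios and shares were compared by exact permutation (two-sided, 5 against 5) in Python 3.11.15. The implied mean transcript length is the exon length of a gene in GENCODE M21 divided by its ratio of FPKM to coverage relative to the most frequent ratio of the library. Read counts and thus counting errors are unknown, and precision rests on the spread between mice. Exon sequences were cut from GENCODE M21 transcripts.

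All 10 genes are named, with up to 4 called genes of each list by size of change, Tnni2, Tnnc2, Tpm3-rs7 and the 5 profiles closest to Tnni1. The genes and lists were chosen with earlier results of these data known. Alternatives were a pseudocount of 0.1, no filter, median-ratio and upper-quartile scaling, TPM, Xist as a covariate, a block for the replicate number, a log2 FC threshold of 1 and leaving out each mouse. The removal of length and GC trends, the length fit and the ratios other than that of Tnni1 to Tnni3 were added after the data were seen.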

Additional observations from a re-analysis of the deposited data

Results flagged for a closer look

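Each set of 5 values in a group was examined for a mouse far from the others, by its gap to the nearest value divided by the range of the group. Among 63 sets, 5 exceeded the critical value of 0.71, where chance flags about 1 in 20, or 3.1. In log2(FPKM + 1), nAAC replicate 1 was the lowest for Tnni3 (0.874) and for Tnnt1 (0.782), the neighbouring troponin genes. The same library was the deepest, at 6.82 gigabases. Its part in these values was not tested, and both genes were called lower without it. For Tnnt3, nAAC replicate 3 was the highest (0.844), at an FPKM of 1.12. In the implied transcript length, nAAC replicate 4 was the lowest for Tnnt3 (0.832), a gene at low levels, and nAAC replicate 5 was the lowest for Tpm4 (0.752), where the values ran only from 858 to 859.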

How the results depend on the processing

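Of the 8 tested genes, 3 were higher and 2 lower. The count of higher genes was 1 after upper-quartile scaling and 1 with an absolute log2 FC above 1, and that of lower genes was 0 with no filter on low values and 0 with that threshold. Over all genes, 3757 were called, against 1983 with Xist as a covariate and 701 with an absolute log2 FC above 1. Leaving out single mice gave 2 to 4 higher genes, 2 lower genes and 2899 to 4551 genes called. The log2 FC of Tnnt2 turned to 0.0895 with TPM and ran from -0.21 to 0.15 when single mice were left out, turning positive without sham replicate 4 (0.15) and without sham replicate 5 (0.0026). The ratio of Tnni1 to Tnni3 differed by 1.29 on the log2 scale, was 1.42 with Xist as a covariate (exact permutation p = 0.063), and ran from 1.08 to 1.67 without single mice. Except for the alternatives whose own construction limits them (fewer mice, another threshold), the cause was not tested. Same-numbered mice did not deviate together (correlations of -0.32 to 0.19, and 0 of 5 matched its own number best), so the numbers do not pair them. With the replicate block the ratio of Tnni1 to Tnni3 was 1.29 (p = 0.125), that of Tnnc1 to Tnni3 1.32 and the share of Tpm2 1.31 points (each p = 0.0625, the smallest that exact sign flips of 5 pairs can give), and the length change of Tpm2 0.57 (adjusted p = 0.0709 from limma). The block called 3426 genes and changed no call among the 8 genes. Low levels limit Tnni1 and Tnnt3, for which no counting error can be given.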
